A study of Mus musculus with 18 samples.

Results

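C1q-gated cells are the barcodes of mouse urinary bladder that carried transcripts of C1qa, C1qb and C1qc, the genes for the chains of complement C1q, above a set level. A barcode with at least 500 unique molecular identifiers (UMIs, one per captured transcript) was a member when C1qa, C1qb and C1qc together gave at least 3 UMIs and at least 0.1% of its UMIs. The members were thus chosen by their C1q transcripts, and those values are given as a description. This gave 1549 of 38761 barcodes in 7 single-cell libraries and 1 library of single nuclei. Csf1r, the macrophage marker that the rule did not use, was present in most of them, and they are called C1q-gated cells throughout.

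C1q is the recognition molecule of the classical complement pathway. It binds antibody, dying cells and debris, and activates the proteases C1r and C1s. Most complement proteins in blood come from the liver, whereas C1q is made mainly by tissue macrophages and related cells. Such macrophages depend on the receptor encoded by Csf1r, clear dying cells, and in many organs fall into a perivascular kind with Lyve1 and Folr2 and a kind rich in MHC class II, which presents peptides to T cells.

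All mice were C57BL/6, and every single-cell library pooled several animals. The whole-bladder cell libraries came from 3 males of 22 months (library 1), 3 males of 3 months (library 2), 2 females and 2 males of 12 months (libraries 3 and 4) and 2 females and 2 males of 24 months (library 5). The detrusor is the muscular wall. One cell library held only detrusor (3 females, 14 months), and another was a detrusor-enriched whole bladder (2 females and 2 males, 14 months). The nuclei came from 2 females and 2 males of 12 months. Spatial sections came from male bladders of 22 months (2 sections) and 14 months (2 sections), and bulk RNA from females of 12 months, as 3 libraries of intact tissue and 3 of dissociated bladder. The labels give no genetic change and no drug for any group. They do not say whether libraries of one group came from separate mice, so a p-value measures only the spread between these libraries.

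The 3 C1q genes lie side by side on chromosome 4 of GRCm38, C1qb at chr4:136880126-136886200, C1qc at chr4:136889801-136892936 and C1qa at chr4:136895916-136898844. The 250 bases before the transcript start that the RefSeq promoter table gives for C1qb and C1qc are shown because the transcripts of the cluster appeared together in the gated cells, which were chosen by their sum. They are from RefSeq on GRCm38, minus strand, C1qb at chr4:136886201-136886450 and C1qc at chr4:136892915-136893164. Capitals mark GAGGAA or its reverse complement TTCCTC, a purine-rich box of the kind bound by PU.1, the macrophage transcription factor encoded by Spi1.
C1qb: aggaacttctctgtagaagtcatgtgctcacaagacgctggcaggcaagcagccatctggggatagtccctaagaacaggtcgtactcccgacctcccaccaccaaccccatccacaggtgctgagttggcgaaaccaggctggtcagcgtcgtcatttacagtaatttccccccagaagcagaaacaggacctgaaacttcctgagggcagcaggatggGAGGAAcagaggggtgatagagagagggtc
C1qc: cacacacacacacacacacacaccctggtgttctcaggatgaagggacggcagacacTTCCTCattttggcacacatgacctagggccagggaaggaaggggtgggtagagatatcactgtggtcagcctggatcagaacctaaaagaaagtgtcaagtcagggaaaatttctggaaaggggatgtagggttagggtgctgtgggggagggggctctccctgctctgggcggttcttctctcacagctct
For C1qc that start lies inside the gene span given above, so the last bases printed fall within the span. The box begins 30 bases before this transcript start of C1qb and 193 bases before that of C1qc. Of 32851 mouse promoters of the same length, 7639 (23.3%) hold these letters on either strand, so a match in both describes the sequence and marks no site.

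The libraries differed in depth and counting. Whole-bladder libraries 1 and 2 had shorter barcodes, a list of 27775 genes and a median of 2524.5 and 1837 UMIs per barcode. Medians in the other cell libraries lay between 6959 and 15042, and the nuclei had a median of 1126.5. The libraries were counted on 3 gene lists of different length, and the 26345 genes common to all entered the comparisons between libraries. Among the 16 pairs of libraries with barcodes of equal length, at most 1.00% of barcodes (of the smaller library) were shared, and no shared barcode was C1q-gated in both.

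The gate kept 442 of 9080 barcodes in whole-bladder library 1 (4.87%, exact binomial 95% interval 4.43 to 5.33%) and 378 of 6378 in library 2 (5.93%). It kept 36 of 3023 in library 3 (1.19%), 8 of 1021 in library 4 (0.784%, interval 0.339 to 1.54%) and 53 of 3224 in library 5 (1.64%). Detrusor only gave 413 of 6400 (6.45%), detrusor enriched 191 of 6163 (3.10%) and nuclei 28 of 3472 (0.807%). The shares were high in the male whole bladders and in detrusor only. They were low in the mixed-sex whole bladders and the nuclei, and in between in detrusor enriched. The male whole bladders are also the libraries with shorter barcodes, another gene list and less depth, so sex cannot be told apart from these. Among barcodes that were gated or carried a UMI of Ptprc, which encodes the pan-leukocyte surface protein CD45, gated barcodes made up 60.6 and 75.3% in libraries 1 and 2, 14.6, 11.4 and 22.6% in libraries 3 to 5, 69.3% in detrusor only and 43.7% in detrusor enriched. Intervals cover counting error only, and gates, depth and dissociation can set such shares.

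**Figure D1:**
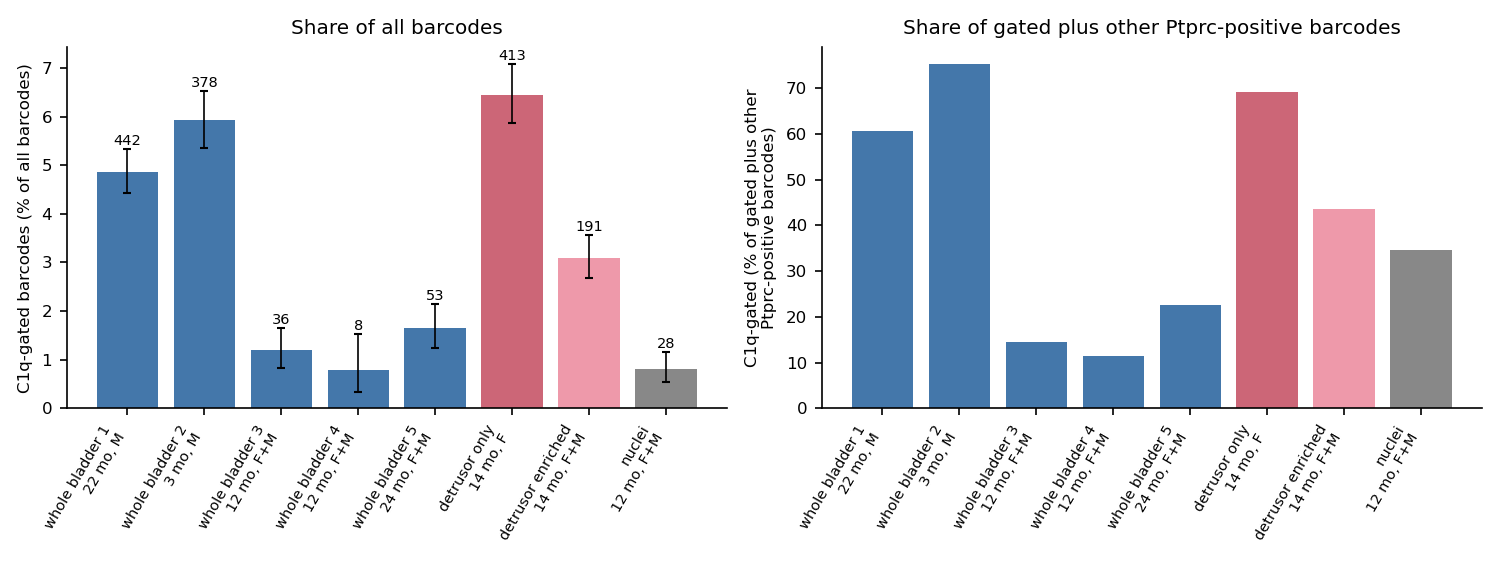
Left, C1q-gated barcodes as a percentage of all barcodes in each library, with exact binomial 95% intervals and the number of gated barcodes above each bar; right, the same barcodes as a percentage of gated plus other Ptprc-positive barcodes. Detrusor only is highest on the left at 6.45%, and whole-bladder library 2 is highest on the right at 75.3%.

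Barcodes near the threshold were counted on both of its sides. Between 1 and 16 gated barcodes per library had less than 0.15% of C1q UMIs, against medians of 1.06 to 2.42% in the cell libraries and 0.553% in nuclei. Between 1 and 39 barcodes per library had 3 or more C1q UMIs but stayed under 0.1%. Those at 0.1% or more with fewer than 3 C1q UMIs numbered 58 and 87 in libraries 1 and 2, 0 in libraries 3 to 5, 24 in detrusor only, 204 in detrusor enriched and 112 in nuclei. With the looser gate of 2 UMIs and 0.05% there were 587 gated cells in library 1, 219 in detrusor enriched and 53 gated nuclei. Gated cells held 86.4 to 98.4% of all C1q UMIs of their library, and gated nuclei 45.1%. Among ungated barcodes 6.42 to 21.1% had at least 1 C1q UMI. C1qa gave 32 to 40%, C1qb 34 to 41% and C1qc 24 to 31% of the C1q UMIs in the gated barcodes of every library and in every tissue section. In other Ptprc-positive cells the mix was another in detrusor, with C1qb at 72.2% of 54 C1q UMIs in detrusor only and 60.6% of 71 in detrusor enriched.

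Csf1r set the gated cells apart in every library. A Csf1r UMI was found in 74.7, 68.0, 88.9, 100 and 92.5% of gated cells of whole-bladder libraries 1 to 5, in 94.2% for detrusor only, 89.5% for detrusor enriched and 71.4% for nuclei. In the remaining cells (ungated, with no Ptprc UMI) the share was 0.841 to 2.25%, at median depths of 1804.5 to 15733 UMIs per cell in the 7 cell libraries. The summed Csf1r level was 676, 801, 648, 634 and 531 CPM (UMIs scaled to a total of 1000000) in the gated cells of libraries 1 to 5, 1161 and 1022 CPM in detrusor only and detrusor enriched, and 0.572 to 10.5 CPM in the remaining cells of the 7 cell libraries. A Ptprc UMI itself was present in 20.4 and 7.94% of gated cells of libraries 1 and 2 and in 62.3 to 79.6% of those of the other cell libraries. Median depth per gated cell was 2925 and 2317.5 UMIs in libraries 1 and 2 and 5903 to 9918 in the other cell libraries, so both depth and Ptprc detection were lower in libraries 1 and 2.

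Markers of other cell types were summed over the gated cells of each library. Over the genes common to all libraries, 9 T or NK genes summed to at most 87.0 CPM and 6 B or plasma genes to at most 173 CPM. Ighm, the IgM heavy chain gene of the B or plasma list, is not among the common genes and was at 370 CPM in gated cells of detrusor only and 223 CPM in those of detrusor enriched. The 12 fibroblast genes summed to 9729 and 3247 CPM in libraries 1 and 2, against 147 to 1641 CPM in the other cell libraries. The 16 urothelial genes summed to 1489 to 2394 CPM in whole bladder, 545 CPM in detrusor enriched and 4.64 CPM in detrusor only, where 12 of the 16 genes were at 0. The 10 smooth muscle genes summed to 44.2 to 530 CPM in whole bladder, 605 CPM in detrusor enriched, 1192 CPM in detrusor only and 19833 CPM in nuclei. Other Ptprc-positive cells, the comparison class below, held such transcripts too. Their urothelial list summed to 3690 to 11719 CPM in whole bladder, against 8185 to 24385 CPM in remaining cells. Their fibroblast list summed to 708 to 12115 CPM in the cell libraries, against 2018 to 44137 CPM in remaining cells. The part of these transcripts in the results was not tested.

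Against other Ptprc-positive cells of the same libraries, gated cells were high in receptors and secreted factors of resident macrophages and low in lymphocyte, monocyte and proliferation genes. Because the gate chose the cells by their own transcripts, these values are a description: log2 differences come from edgeR with library as a term and are given with a standard error and no p-value. Of 10292 genes, 28.5% passed the adjusted threshold of 0.05, 12.3% higher and 16.2% lower, and 17.8% went one way in every library, and nothing is read from the members' counts beside that share. The median of all genes was -0.08.

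Among macrophage core genes 16 of 20 measured passed the threshold as higher and 0 as lower (median 2.42). Adgre1, which encodes the F4/80 antigen, gave 521, 540.4, 341, 295 and 241 CPM in libraries 1 to 5, 395 and 443 CPM in detrusor only and detrusor enriched and 7.21 to 38.9 CPM in other Ptprc-positive cells, a log2 difference of 4.50 ± 0.43 (SE, n = 7 libraries). Csf1r differed by 3.85 ± 0.42. Fcgr1, the high-affinity IgG receptor CD64, differed by 4.56 ± 0.48, and all 6 Fc receptor genes were higher. The groups did not overlap for Adgre1, Csf1r or Fcgr1.

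Resident and perivascular genes were high in nearly every member: 15 of 16 were higher and 0 lower, with a median of 4.32. Folr2, a folate receptor, reached 261, 424, 657, 88.5 and 516 CPM in libraries 1 to 5 and 1149 and 624 CPM in detrusor only and detrusor enriched, against 0 to 1.94 CPM in other Ptprc-positive cells and 0.127 to 1.57 CPM in remaining cells. Every gated value of Folr2 lay above every other value, although library 4, with 8 gated cells, was far below the rest. Pf4, a chemokine best known from platelets, gave a lowest, median and highest of 1479, 1892 and 3493 CPM in gated cells and 0 to 9.97 CPM in other Ptprc-positive cells. Cd209f, a lectin of the DC-SIGN family, gave 103, 634 and 1804 CPM, Pla2g2d, a secreted phospholipase, 73.7, 375 and 823 CPM, and other Ptprc-positive cells at most 11.7 and 1.11 CPM of them. Timd4, a receptor for phosphatidylserine on dying cells, stayed low in gated cells themselves, at 0 to 87.6 CPM.

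**Figure D2:**
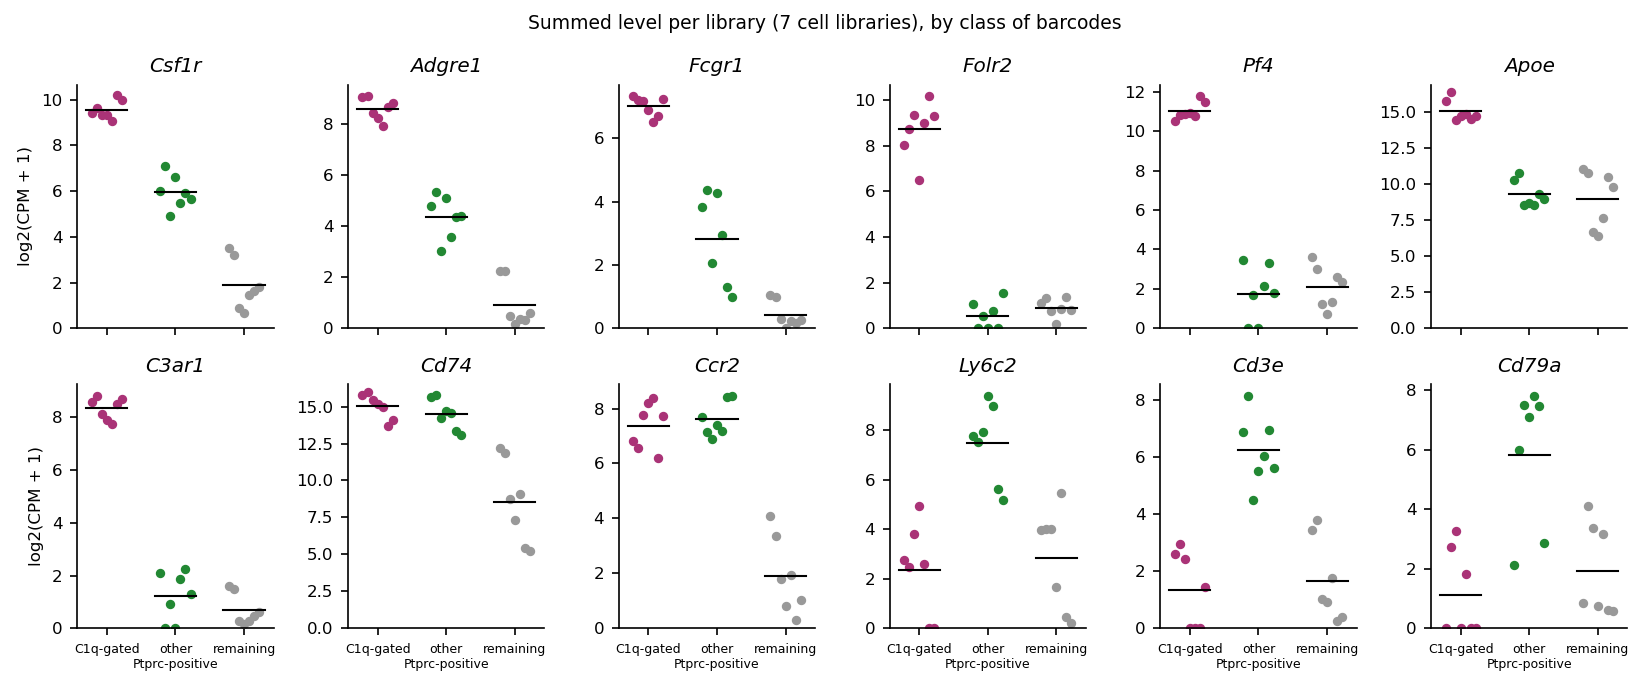
Each panel shows 1 gene as log2(CPM + 1) of the summed counts in C1q-gated cells, other Ptprc-positive cells and remaining cells; each point is 1 of the 7 cell libraries and the line is the mean. Folr2, Pf4 and C3ar1 are separate in every library, Cd74 and Ccr2 overlap between gated and other Ptprc-positive cells, and Ly6c2, Cd3e and Cd79a are on average higher in the latter.

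Beyond C1q, the complement list was mixed. Of 16 measured members, 6 were higher (among them C3ar1, C5ar1, C4b, Cfp and Itgam) and 2 lower (Serping1 and C1s1), with a median of 0.40. C3ar1, the receptor for the fragment C3a, gave 388, 448, 277, 236 and 215 CPM in libraries 1 to 5, 363 and 415 CPM in detrusor only and detrusor enriched, and 0 to 3.71 CPM in other Ptprc-positive cells (7.56 ± 0.40). C5ar1, the receptor for C5a, gave 326 to 1644 CPM against 2.25 to 144 CPM (6.34 ± 0.45). Both receptors were separate between the classes in every library.

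The soluble components did not all go one way. Cfp, which encodes properdin, the stabiliser of the alternative pathway convertase, gave 637 to 994 CPM in gated cells and 1.78 to 31.1 CPM in remaining cells. C4b, a substrate of the C1 protease, gave 0 to 491 CPM in gated cells, with 0 UMIs in the 8 cells of library 4, and 10 to 117 CPM in remaining cells. The C1 proteases and their inhibitor were higher in remaining cells. C1s1 was at 0 to 128 CPM in gated and 32.6 to 635 CPM in remaining cells, C1ra at 8.64 to 83.4 and 23.3 to 373 CPM, and Serping1, the C1 inhibitor, at 12.8 to 599.6 and 140.0 to 2796 CPM. Against remaining cells 7 of 16 were higher and 6 lower (Serping1, C1s1, C1ra, C2, Cd55 and C1rl), where 50.4% of all genes passed the threshold, 20% higher and 30.4% lower, 36.6% went one way in every library, and the median of all genes was -0.17. Vsig4, a macrophage receptor for C3b, was sparse, at 0 to 69.7 CPM in gated cells, and listed at 0 in other Ptprc-positive cells.

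Phagocytic and lysosomal genes were high together. All 22 lysosomal genes were higher than in other Ptprc-positive cells (median 2.05), and 13 of 18 phagocytic and lipid receptors were higher with 1 lower, Tyro3 (median 2.98). Apoe, which encodes the lipid carrier apolipoprotein E, gave 57698, 88175, 22852, 27135 and 30575 CPM in libraries 1 to 5 and 23696 and 27609.8 CPM in detrusor only and detrusor enriched, against 373 to 1725 CPM in other Ptprc-positive cells. Trem2, a lipid-sensing receptor, gave 203 to 511 against 2.97 to 16.5 CPM, and Mertk, a receptor for dying cells, 4.32 to 95.9 against 0 to 7.79 CPM. Mertk therefore overlapped with the other cells through library 3, which had 36 gated cells. Ctsb, a lysosomal protease, gave 2445 to 4443 against 248 to 1036 CPM. Of the iron and haem genes 9 of 10 were higher. Hmox1, haem oxygenase 1, ranged from 59 to 1676 CPM, lowest in library 4 and highest in detrusor only. Atp6v0d2, a subunit of the vacuolar proton pump, had 125 UMIs in gated cells and 0 in other Ptprc-positive cells, at least 46.0-fold higher when 3 counts over the class are taken as the floor.

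Among 17 chemokines 14 were higher and 2 lower (Ccl5 and Ccl22). Ccl8 gave 118 to 2978 CPM in gated and 0 to 16.6 CPM in other Ptprc-positive cells, Ccl12 133 to 1401 and 0 to 7.79 CPM, and Ccl24 88.5 to 1306 and 0 to 11.7 CPM. These chemokines were separate between the classes. Ccl2, which draws monocytes through Ccr2, gave 673 to 3274 against 29.1 to 149 CPM. Of the inflammatory list 9 of 14 were higher, among them Il10 (3.67 ± 0.61) and Tnf (1.92 ± 0.58). Il1b overlapped between the classes, at 227 to 2315 CPM against 909 to 1496 CPM (-0.24 ± 0.57). The dissociation response list, immediate early and heat shock genes induced by tissue handling, had 17 of 24 higher with a median of 0.83.

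Of 13 MHC class II and co-stimulation genes Cd86 was higher than in other Ptprc-positive cells, H2-Oa and H2-DMb2 were lower, and the median was 0.60, against 28.5% of all genes past the threshold in either direction. H2-Aa, a class II chain, gave 17771, 16248, 14275, 12697 and 11480.1 CPM in libraries 1 to 5 and 4634 and 7164 CPM in detrusor only and detrusor enriched, against 3437 to 15527 CPM in other Ptprc-positive cells. Against remaining cells 12 of 13 were higher. Monocyte genes gave 6 lower of 10 and 1 higher, Lyz1, with a median of -2.05. Ly6c2, a surface protein of classical monocytes, was at 0 to 29.5 CPM in gated and 35.9 to 668 CPM in other Ptprc-positive cells. Ccr2, the monocyte homing receptor, overlapped between the classes, at 71.7 to 331 against 119 to 353 CPM (-0.19 ± 0.63).

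Lymphocyte and cell cycle genes were mostly lower than in other Ptprc-positive cells. Of 8 T or NK genes 7 were lower and Cd4 was higher, of 5 B or plasma genes 4 were lower, and of 12 cell cycle genes 9 were lower than in other Ptprc-positive cells (median -1.74). Against remaining cells 9 of the 12 cell cycle genes were higher and 0 lower in the fit (median 2.72), but the summed list differed by library. It was lower in gated than in remaining cells of libraries 2, 3 and 4 (85.4 against 125, 238 against 524 and 177 against 368 CPM). In gated cells of these libraries 6, 6 and 7 of the 12 genes were at 0. The sum was higher in gated cells of libraries 1 and 5, detrusor only and detrusor enriched. The dendritic list had 4 of 11 lower (Xcr1, Ccr7, Flt3 and Zbtb46) and Siglech higher. The genes with the largest falls were Gzmb, Gzma, Cd8b1, Xcl1, Cd7, Nkg7, Xcr1, Cd8a, Ms4a4b and Klre1, mostly of cytotoxic lymphocytes. Transcription factors gave 5 higher of 13, among them Maf, Mitf, Cebpa and Cebpb, and 1 lower, Gata6. Markers of 3 other kinds of tissue cell were mostly lower: 15 of 16 urothelial, 8 of 12 fibroblast and 7 of 10 smooth muscle genes. Of 9 endothelial genes 1 was lower, where 16.2% of all genes passed as lower. In these 4 lists 0 genes were higher. Their part in the other differences was not tested. Of the other lists, these had members higher: interferon response (3 of 12), growth factors (5 of 11, with Igf1 at 4.55 ± 0.53) and neutrophil (2 of 2, Mmp9 and Csf3r). Leaving out detrusor enriched lowered the number of genes past the threshold from 2931 to 1841. Other gates changed its split, from 43.3% higher to 53.2% with 2 UMIs and 0.05% and to 29.8% with 5 UMIs and 0.2%, and DESeq2's size factors in edgeR gave 34.9% and DESeq2 36.3%. Against remaining cells the split was 39.7% higher, 30% with those size factors and 28.4% with 5 UMIs and 0.2%.

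The share of C1q-gated barcodes was compared between the whole bladders of 22 and 24 months, called older, and those of 3 and 12 months, called younger. It averaged 3.26% in the 2 older and 2.63% in the 3 younger libraries, a difference of 0.62 percentage points that an exact two-sided permutation test did not separate (p = 0.8, where 2 against 3 libraries allow no p below 0.1). Within the male libraries the older had the lower share (4.87 against 5.93%), and within the mixed-sex libraries the older had the higher (1.64 against 1.19 and 0.784%). Without library 1 the difference was -0.99 points, without library 3 -0.10 points and without library 4 -0.30 points, so its sign rested on single libraries.

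Within gated cells, 4 of 4564 genes (0.0876%) differed with age in edgeR's quasi-likelihood test with the sex mix as a term. Of the genes 0.0657% were higher and 0.0219% lower in the older, and 11.7% did not overlap between the groups. Sex mix goes with barcode length, gene list and depth in these libraries, so that term stands for all of them. Ccl17, a chemokine of activated dendritic cells, rose by 6.01 ± 0.54 (SE, adjusted p = 2.70e-05 by edgeR), with 173 and 179.5 CPM in the older and 3.37, 0 and 0 CPM in the younger libraries. That difference rests on single cells: 225 of 239 Ccl17 UMIs in library 1 and 69 of 70 in library 5 came from 1 cell each. Chil3, a chitinase-like protein, fell by 6.07 ± 0.72 (adjusted p = 0.00557 by edgeR), and 285 of its 466 UMIs in library 2 came from 1 of 8 positive cells.

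Col1a1 and Lum, both fibroblast matrix genes, rose by 2.79 ± 0.41 and 2.86 ± 0.48 (adjusted p = 0.00653 and 0.0201 by edgeR). Col1a1 stood at 1098 and 20.5 CPM in the older and 148, 4.32 and 0 CPM in the younger libraries, so the groups overlapped. In library 1 the 16 highest of 442 gated cells held at least as many Col1a1 UMIs as all others together. The same held for Lum. The fibroblast list gave a median of 0.304% and a highest value of 12.8% of the UMIs of a gated cell there. In the remaining cells of libraries 1 to 5 Col1a1 was at 5732, 1582, 261, 178 and 402 CPM, and its part in the gated values was not tested. Without library 1, Chil3, Col1a1 and Lum no longer passed the threshold, and without the sex term 0 genes did. Measured relative to the remaining cells of each library, none of Chil3, Col1a1 and Lum passed either. By that measure Col1a1 was at 0.91 ± 0.77, Lum at 0.79 ± 0.72 and Chil3 at -3.26 ± 0.85. The fit of that measure had no term for the sex mix of gated against remaining cells. The loss of these calls therefore cannot be told apart from the loss of the sex term. Ccl17 is not in the chemokine list used here. No member of the macrophage core, resident, MHC class II, complement, Fc receptor, lysosomal or chemokine list passed the threshold, with list medians between -0.38 and -0.08 and a median of 0.02 over all genes. Csf1r differed by -0.27 ± 0.29 (adjusted p = 0.976 by edgeR) and Lyve1 by -1.66 ± 0.40 (adjusted p = 0.324 by edgeR).

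Gated cells of the 2 detrusor libraries differed from those of whole bladder in a set of resident macrophage genes, which rose, and in MHC class II and monocyte genes, which fell. Of 8143 genes 15.5% passed edgeR's threshold, 10.8% higher and 4.74% lower in detrusor, and 34.5% did not overlap between the groups. Higher genes were 69.5% of those called, 57.6% with DESeq2 and 51.9% against the mixed-sex whole bladders alone. Tissue, age, sex mix and gene list differ between these groups and cannot be told apart. Several of these traits were also seen in gated nuclei, which are not labelled as detrusor and share the gene list of the detrusor libraries. In these nuclei Mrc1 was at 1676 CPM, Maf at 825 CPM, F13a1 at 1050 CPM and Stab1 at 1326 CPM. Cd74 was at 3877 CPM, Lyz1 at 75.0 CPM and Plac8 at 0 CPM there. Folr2, at 175 CPM, and Fn1, at 1100 CPM, did not follow the detrusor cells.

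Among 17 resident and perivascular genes 6 rose (Maf, Mrc1, Stab1, F13a1, Lyve1 and Dab2), 0 fell, and the median log2 difference was 1.41, against 0.01 over all genes. Mrc1, the mannose receptor CD206, was at 204, 218, 402, 236 and 405 CPM in whole-bladder libraries 1 to 5 and at 1945 and 1461 CPM in detrusor only and detrusor enriched. Both detrusor values lay above all 5 whole-bladder values (2.43 ± 0.39, adjusted p = 0.00421 by edgeR). Stab1, a scavenger receptor of resident macrophages and sinusoidal endothelium, was at 159.5, 142, 164, 73.7 and 141 CPM and at 477 and 642 CPM (1.88 ± 0.32, adjusted p = 0.00563 by edgeR). Maf, a transcription factor of resident macrophages, was at 70.3, 76.4, 125, 192 and 169 CPM and at 805 and 797 CPM (2.62 ± 0.38, adjusted p = 0.00293 by edgeR). Without detrusor only, Mrc1, Stab1 and Dab2 lost their calls, and Dab2 also lost its call without detrusor enriched, while Maf kept its call in both.

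F13a1, which encodes a coagulation factor XIII chain, was at 169.7, 642, 307, 192 and 262 CPM in whole bladder and 1262 and 999 CPM in detrusor (1.72 ± 0.48, adjusted p = 0.035 by edgeR). Lyve1, a hyaluronan receptor, was at 24.7, 122, 86.4, 133 and 56.4 CPM and 288 and 253 CPM (1.67 ± 0.49, adjusted p = 0.0439 by edgeR). Neither overlapped, but both lost their calls when either one of the detrusor libraries was left out, Lyve1 also with DESeq2, among cells with a Csf1r UMI and without library 3, 4 or 5, and F13a1 also without library 1, 3, 4 or 5. Folr2 (1.06 ± 0.62, adjusted p = 0.25 by edgeR) and Cd163 (1.57 ± 0.81, adjusted p = 0.215 by edgeR) did not pass, and Folr2 overlapped between the groups. Csf1r was at 0.64 ± 0.32 with adjusted p = 0.177 by edgeR.

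MHC class II gave 7 falls and 1 rise among 13 genes, with a median of -1.41. Cd74, the invariant chain that guides class II molecules, was at 57551, 63936, 44511, 37104 and 31747 CPM in whole-bladder libraries 1 to 5 and at 13249.6 and 17154 CPM in detrusor only and detrusor enriched, with no overlap (-1.73 ± 0.40, adjusted p = 0.0177 by edgeR). H2-Aa differed by -1.41 ± 0.36 (adjusted p = 0.0269 by edgeR). H2-DMb1, a chain of H2-DM, which helps class II molecules take up peptides, differed by -1.62 ± 0.40 (adjusted p = 0.0221 by edgeR). H2-DMb2, H2-Oa, H2-Ab1 and H2-DMa fell too. Ciita, the transcriptional activator of class II genes, moved the other way, from 16, 8.99, 21.6, 29.5 and 33.3 CPM to 80.1 and 134 CPM (2.35 ± 0.42, adjusted p = 0.00673 by edgeR).

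Cd74 and H2-Aa lost their calls without library 1, detrusor only or detrusor enriched. The remaining cells of the same libraries moved in the same direction for class II: H2-Aa was at 1499, 942, 126, 46 and 166 CPM in those of libraries 1 to 5 and at 13.5 and 16.4 CPM in those of detrusor only and detrusor enriched. The part of such RNA in the gated values was not tested. Measured relative to the remaining cells of each library, Cd74 in gated detrusor cells was higher by 3.32 ± 0.78 (adjusted p = 0.0413 by edgeR), the reverse of its direction in gated cells alone. H2-Eb1, which had not passed in gated cells alone, was higher too, by 3.17 ± 0.71 (adjusted p = 0.0353 by edgeR). H2-Aa was at 3.22 ± 0.83 (adjusted p = 0.0709 by edgeR).

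By that measure none of Maf, Stab1, Lyve1, Mrc1 and F13a1 passed the threshold. Maf was at 18.8, 18.1, 4.72, 5.66 and 8.98 CPM in remaining cells of libraries 1 to 5 and at 111 and 84.7 CPM in those of detrusor only and detrusor enriched, and its relative difference was -0.09 ± 0.57 (adjusted p = 0.971 by edgeR). Stab1 was at 1.39 to 4.29 CPM and 17.5 and 17.7 CPM in the same cells, with a relative difference of -0.50 ± 0.40 (adjusted p = 0.529 by edgeR). Lyve1, also a gene of lymphatic endothelium, was at 0.127 to 7.81 CPM and 117 and 49.6 CPM, with a relative difference of -3.15 ± 1.63 (adjusted p = 0.38 by edgeR). Mrc1 differed by 1.15 ± 0.61 (adjusted p = 0.344 by edgeR) and F13a1 by 1.69 ± 0.55 (adjusted p = 0.126 by edgeR), the same direction as in gated cells alone but short of the threshold. Mrc1 was at most 3.78 CPM in remaining cells.

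Of 8 monocyte genes 4 fell (Ly6c2, Plac8, Lyz1 and Fn1) and 0 rose, with a median of -3.26. Lyz1, a lysozyme, was at 953, 1311, 1300.5, 1209 and 1118 CPM in whole bladder and 171 and 255 CPM in detrusor (-2.58 ± 0.39, adjusted p = 0.00322 by edgeR). Plac8 was at 89.2, 94.4, 17.3, 29.5 and 61.6 CPM and 2.47 and 7.36 CPM (-3.93 ± 0.67, adjusted p = 0.0064 by edgeR). Ly6c2 had 19 UMIs in whole bladder and 0 in detrusor, at least 10.7-fold lower with 3 counts over the group as the floor. Ccr2 overlapped between the groups (-0.67 ± 0.57, adjusted p = 0.42 by edgeR). Relative to remaining cells Plac8 was lower (-3.04 ± 0.46, adjusted p = 0.00289 by edgeR), while Lyz1 changed sign (0.73 ± 1.19, adjusted p = 0.798), and neither it nor Fn1 (-3.20 ± 0.95, adjusted p = 0.147) nor Ly6c2 (adjusted p = 0.715) passed the threshold.

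Other lists changed in few members. Of 18 complement genes the 2 that fell were Cfb and Itgb2. Of 6 Fc receptors Fcgr4 fell, of 19 macrophage core genes Mertk was among those that rose and Ctss fell, and of 17 phagocytic receptors 4 rose (Mrc1, Mertk, Stab1 and Abca1). The dissociation list had 5 of 24 higher (Egr1, Atf3, Gadd45b, Klf6 and Fosb, with a median of 1.06). Its sum in gated cells was 75626 CPM in detrusor only, 37353 CPM in detrusor enriched and 17313 to 41384 CPM in whole bladder. In remaining cells it was 46902 CPM, 23256 CPM and 11874 to 28758 CPM. The part of this in the detrusor differences was not tested. Egr1, an immediate early factor, was at 469.8, 439, 410.5, 236 and 357 CPM in whole bladder and 2214 and 1719.7 CPM in detrusor, and in remaining cells at 800.2, 747, 302, 416 and 425 CPM and 2871 and 1619.6 CPM. Smooth muscle genes had 3 of 8 higher (Myh11, Cnn1 and Des), of 16 urothelial genes Epcam fell, of 12 interferon genes Irf7 fell, and of 3 B or plasma genes Jchain fell. Their part in the macrophage results was not tested. Relative to remaining cells Ctss (2.93 ± 0.83), Fcgr4 (1.94 ± 0.90) and Gadd45b (-1.28 ± 0.47) changed sign, short of the threshold. Cfb (-3.15 ± 0.95), Atf3 (1.67 ± 0.58), Abca1 (0.67 ± 0.36) and Mertk (0.42 ± 0.44) kept their direction, also short of it.

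**Figure D3:**
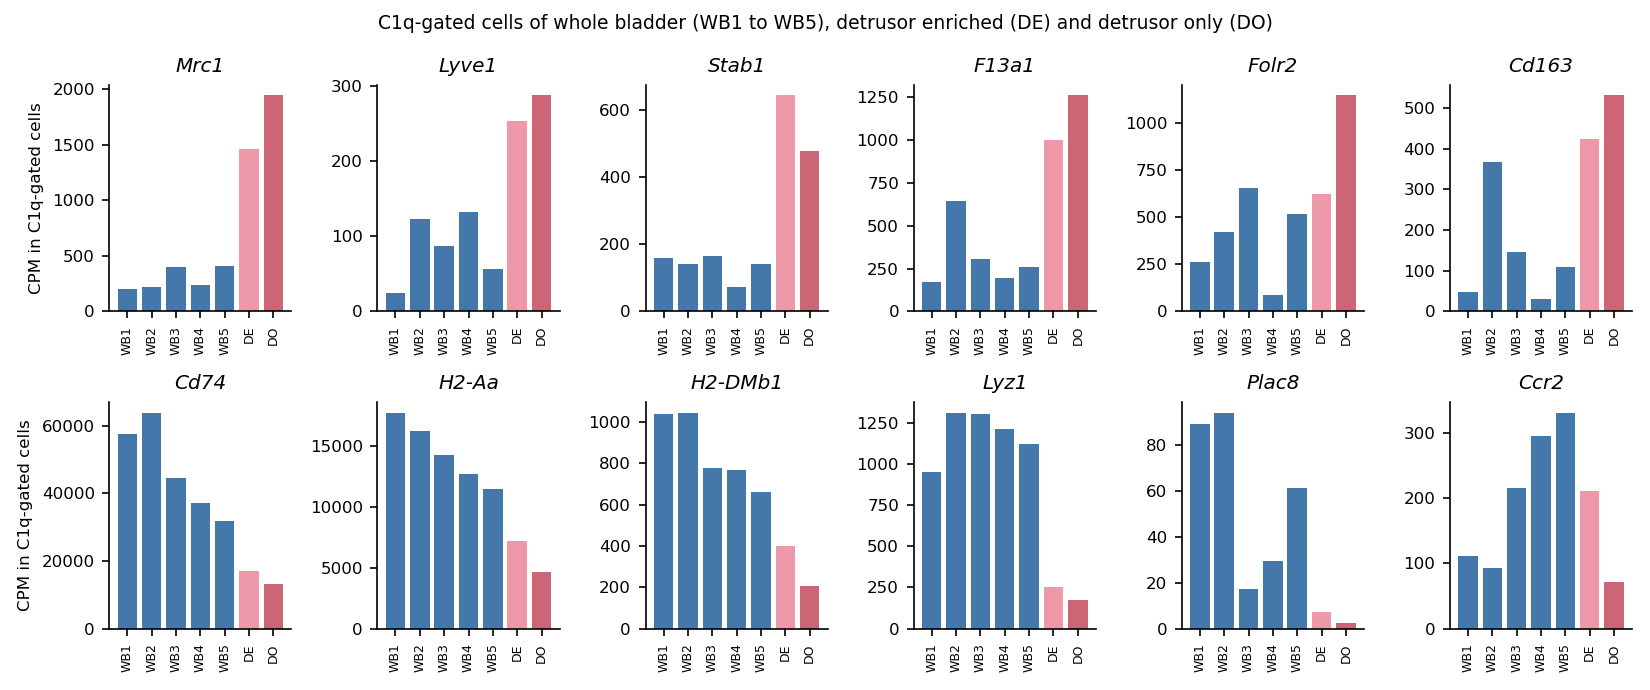
CPM in the C1q-gated cells of each library for 6 resident and perivascular genes (top) and 6 antigen presentation or monocyte genes (bottom); WB1 to WB5 are whole-bladder libraries 1 to 5. Mrc1, Lyve1, Stab1 and F13a1 stand higher in both detrusor libraries, Folr2 and Ccr2 overlap, and Cd74, H2-Aa, H2-DMb1, Lyz1 and Plac8 stand lower.

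Among the genes with the largest rises in detrusor were Mia2, Egr3, Synm, Rad51b, Lars2, Jdp2, Slc5a3, Zfp445 and Ncoa4, and those with the largest falls were Atp5o, Fdx1l, Jchain, Tonsl, Hgs, Cyp2f2, U2af1l4, Spint2, Krt4 and Vsig2. Relative to remaining cells none of these genes passed the threshold. Slc5a3 kept its direction at 2.97 ± 0.84 (adjusted p = 0.0776 by edgeR). Among those that changed sign were Egr3 (-1.62 ± 1.83), Jdp2 (-0.94 ± 0.90), Tonsl (1.72 ± 0.69) and Hgs (1.73 ± 1.85). Some of the named genes differed in the remaining cells too. Atp5o, a subunit of ATP synthase, had 685 UMIs in gated whole-bladder cells and 0 in gated and remaining barcodes of both detrusor libraries and the nuclei. Mia2 had 0 UMIs in gated whole-bladder cells and 439 in gated detrusor cells, and 0 to 7 per library in remaining whole-bladder cells against 2545 and 3926 in detrusor. These libraries were counted on gene lists of different length, whose part was not tested. The number of genes past the threshold fell from 1264 to 42 without detrusor only, 298 without detrusor enriched and 708 without library 1. Of 66 named genes past the threshold, 12 stayed past it without detrusor only, among them Maf, and 40 without detrusor enriched, among them Mrc1, Stab1, Maf, H2-DMb2, Plac8 and Lyz1.

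To compare detection at equal depth, each cell was thinned to 1000 UMIs, leaving out 8 and 31 gated cells of libraries 1 and 2, 19 of detrusor only, 15 of detrusor enriched, 13 gated nuclei and 0 of libraries 3 to 5. At this depth Folr2 or Lyve1 was found in 14.5, 23.6, 38.9, 25 and 22.6% of gated cells of whole-bladder libraries 1 to 5, in 65.2% for detrusor only (60.3 to 69.9%, exact binomial 95%) and in 31.2% for detrusor enriched. Unthinned, these shares were 21, 33.1, 44.4, 25 and 47.2%, 86% and 55.5%. Detrusor only stood above the other libraries. The place of detrusor enriched depended on the draw, since each gene, and the pair together, was thinned separately at random. In a second draw Folr2 or Lyve1 was found in 58 of 434, 78 of 347, 11 of 36, 1 of 8 and 16 of 53 gated cells of libraries 1 to 5 and in 61 of 176 of detrusor enriched, a share above all 5, as it was unthinned. In remaining cells the thinned share in cell libraries was at most 2.38%.

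Mrc1 at equal depth was found in 15.4, 17.6, 27.8, 12.5 and 35.8% of gated cells of libraries 1 to 5 and in 79.7 and 58.5% for detrusor only and detrusor enriched, both above all whole-bladder libraries. Ccr2 was found in 7.14, 6.05, 16.7, 37.5 and 22.6% and in 4.57 and 9.09%. H2-Aa was found in 95.9, 95.4, 94.4, 87.5 and 90.6% and in 81 and 89.8%, so most gated cells carried class II in every cell library. In remaining cells H2-Aa was found in 25.8, 11.4, 5.91, 2.42 and 5.99% and in 0.981 and 1.92%. Cx3cr1, the fractalkine receptor, was found in 15.2, 10.1, 8.33, 0 and 15.1% of gated cells of libraries 1 to 5, in 3.81% for detrusor only and in 17.6% for detrusor enriched. The 0 of 8 cells in library 4 allow a share of cells with a UMI at this depth of up to 37.5% (3 cells of the total), and unthinned it was 25%.

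**Figure D4:**
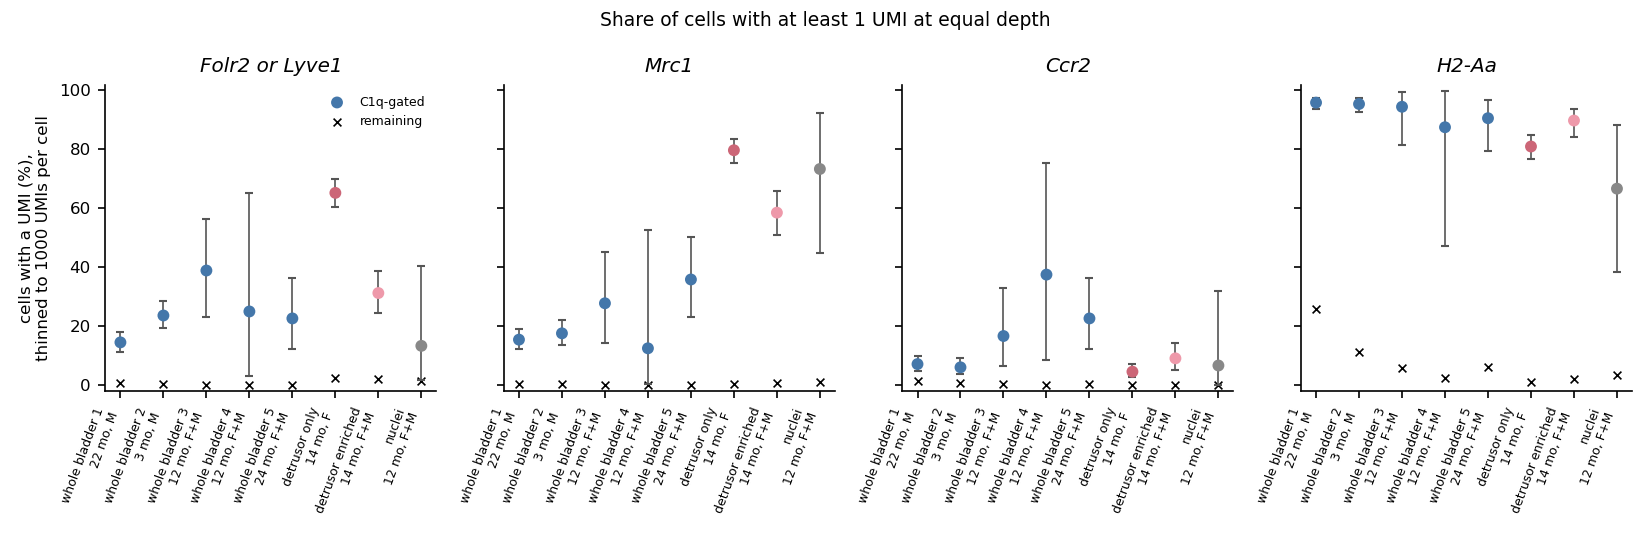
Percentage of cells with at least 1 UMI of the named gene after thinning each cell to 1000 UMIs, per library; circles with exact binomial 95% intervals are C1q-gated cells and crosses are remaining cells. Folr2 or Lyve1 is highest in detrusor only at 65.2%, Mrc1 is high in both detrusor libraries and nuclei, and H2-Aa is high in all cell libraries.

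Within the gated cells, those with a Folr2 or Lyve1 UMI after thinning were set beside those without, in the 4 libraries with at least 20 cells of each (58 and 376 cells in library 1, 78 and 269 in library 2, 243 and 151 in detrusor only, 61 and 115 in detrusor enriched). The split is a range set by detection and not a cell type, and its values are a description, since the cells were split by their own transcripts. It used the second random draw given above. Of 1640 genes 6.65% passed the threshold, 2.87% higher and 3.78% lower, and 24.5% went one way in every library. Positive cells were higher in 11 of 13 resident genes and lower in 7 of 9 MHC class II genes, with medians of 0.95 and -0.66 against -0.03 over all genes.

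Levels here are CPM of the genes tested, after thinning and normalization. Cd209d, a DC-SIGN family lectin, was at 193, 503, 949.9 and 485 CPM in positive and 6.72, 54.9, 308 and 142 CPM in negative cells of library 1, library 2, detrusor only and detrusor enriched (2.28 ± 0.30). F13a1 differed by 1.53 ± 0.24, Cbr2, a carbonyl reductase, by 1.59 ± 0.22 and Cd163, the haemoglobin scavenger receptor, by 1.21 ± 0.24, each higher in positive cells of all 4 libraries. Of 8 complement genes C4b (1.38 ± 0.25) and Cfp (1.21 ± 0.16) were higher and Serping1 was lower.

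Genes higher in negative cells included Cx3cr1, Il1b, Lyz1 and Ccr2. Il1b was at 2176, 1546, 578 and 2434 CPM in negative and 693, 778, 87.4 and 379 CPM in positive cells (-1.86 ± 0.24). Ccr2 differed by -1.62 ± 0.37, Lyz1 by -1.64 ± 0.23, Cx3cr1 by -2.02 ± 0.41, Cd74 by -0.72 ± 0.10 and H2-Aa by -0.63 ± 0.10, in each library in the same direction. Csf1r differed by 0.31 ± 0.14 and was a little higher in positive cells of each library. Of 15 chemokines Pf4, Ccl6 and Ccl9 were higher in positive cells and Ccl3, Ccl4, Cxcl16 and Cxcl2 lower. Fibroblast genes Dcn and Col1a1 were lower too. Without library as a term 0 genes passed the threshold.

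**Figure D5:**
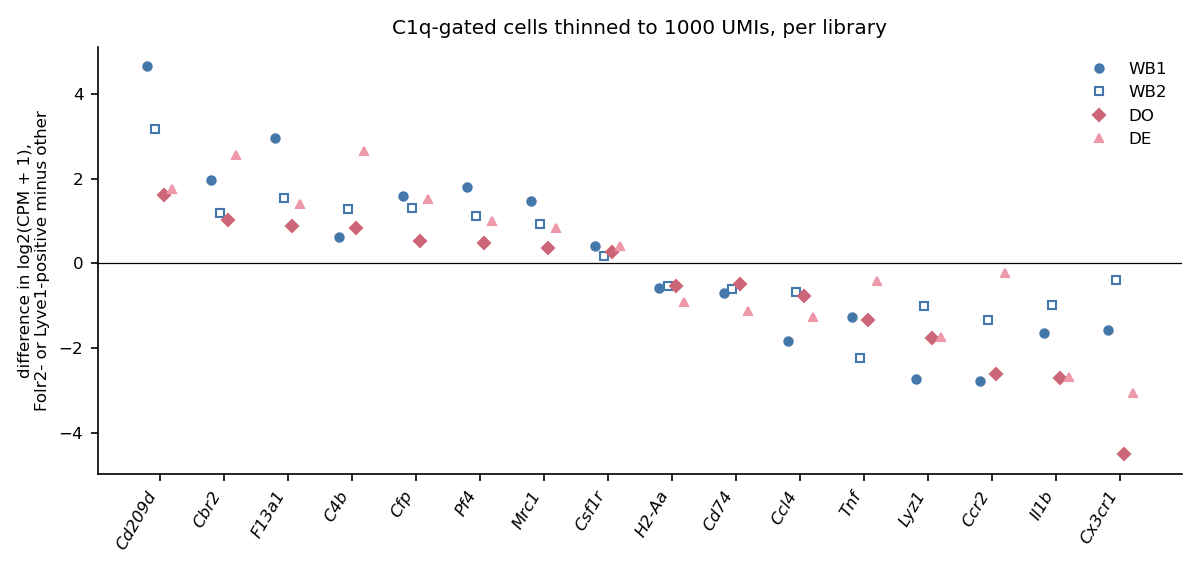
Difference in log2(CPM + 1) between C1q-gated cells with and without a Folr2 or Lyve1 UMI, after thinning to 1000 UMIs; each symbol is 1 of 4 libraries (WB1, WB2, detrusor only DO, detrusor enriched DE). Genes from Cd209d to Csf1r lie above 0 and those from H2-Aa to Cx3cr1 below 0 in every library.

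Gated nuclei, 28 in 1 library, were compared with gated cells of the 5 whole-bladder libraries in edgeR, with the single library assumed to vary like the others. The nuclei have no replicate, so the adjusted p-values rest on that assumption and the differences describe this library. It was lower in stress-induced, inflammatory, class II and lysosomal transcripts and higher in smooth muscle genes. Of 6395 genes 11.3% passed the threshold, 2.19% higher and 9.15% lower, and 67.2% did not overlap, with a median of -0.53 over all genes. With DESeq2's size factors in edgeR, 469 genes passed, 53.3% of them higher against 19.3% with TMM, and the median was 0.09.

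The dissociation response list fell in 18 of 24 members and rose in 0 (median -4.24). Fos, an immediate early factor, was at 5648, 7741, 3783, 2448 and 3417 normalized CPM in cells and 13.1 in nuclei (-8.43 ± 1.12, adjusted p = 0.00511 by edgeR). Il1b, Ccl3, Ccl4 and Atf3 had 0 UMIs in gated nuclei. With 3 counts as the floor Il1b was at least 16.0-fold lower, Ccl4 at least 17.9-fold and Atf3 at least 12.4-fold. Inflammatory genes fell in 6 of 14 and chemokines in 9 of 17.

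MHC class II fell in 8 of 11 members and lysosomal genes in 15 of 22. Cd74 differed by -4.83 ± 0.68 (adjusted p = 0.00511 by edgeR). Of 17 resident genes Stab1 rose (2.00 ± 0.42, adjusted p = 0.0195 by edgeR), Pf4 fell, and Mrc1 (1.26 ± 0.50, adjusted p = 0.126 by edgeR) and Csf1r (-0.91 ± 0.50, adjusted p = 0.251 by edgeR) did not pass. The sign for Csf1r depended on the scaling: without TMM it was at 825 CPM in gated nuclei, above the 531 to 801 CPM of the whole-bladder libraries. Smooth muscle genes rose in 7 of 9, but Myh11, the smooth muscle myosin, was at 2026 CPM in gated and 4591 CPM in remaining nuclei. Relative to the remaining nuclei and cells Csf1r kept its sign and its difference was larger, at -2.13. Other differences named here were smaller or changed sign. By that measure Cd74 was at -0.81, H2-Aa at -0.96, Fos at -2.48, Myh11 at 0.48 and Stab1 at -0.82. The dissociation list summed to 3702 CPM in gated and 2985 CPM in remaining nuclei.

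Bulk RNA gave a view that no gate had shaped. Dissociated bladders were higher than intact tissue in C1q, class II and inflammatory transcripts. In bulk, fewer or more cells of a type and less or more RNA per cell cannot be told apart. Of 16538 genes 59.2% passed edgeR's threshold, 27.9% higher and 31.3% lower in dissociated bladder, and 67.2% did not overlap, with a median of -0.03.

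C1qa was at 66.8, 73.5 and 76.6 normalized CPM in the 3 intact libraries and 116, 110.3 and 88.2 in the 3 dissociated ones, with no overlap (0.53 ± 0.11, adjusted p = 0.00493 by edgeR). C1qb rose by 0.53 ± 0.13 (adjusted p = 0.00837 by edgeR) and C1qc by 0.38 ± 0.12 (adjusted p = 0.0258 by edgeR). Csf1r was at 142, 135 and 149.8 and 210.3, 187 and 156 normalized CPM (0.38 ± 0.12, adjusted p = 0.0238 by edgeR). For each of these genes the third dissociated library was the lowest of its group and the nearest to intact tissue. C1qc lost its call without any single library other than dissociated library 3, and Csf1r without intact library 1 or 2. Without TMM Csf1r overlapped, at 147.65 CPM in dissociated library 3 and 156.2 CPM in intact library 3. So did C1qc, at 75.7 and 81.8 CPM in the same libraries. C1qa did not overlap without TMM, and C1qb stayed apart by little, at 81.76 against 81.58 CPM.

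Macrophage core genes rose in 18 of 21 and resident genes in 10 of 17. Lyve1 was at 39.8, 25.8 and 35 in intact and 74.9, 69.8 and 50.9 normalized CPM in dissociated bladder (0.97 ± 0.19, adjusted p = 0.00368 by edgeR), and Timd4 rose by 1.24 ± 0.21 (adjusted p = 0.00157 by edgeR). Folr2 overlapped and missed the threshold (0.45 ± 0.17, adjusted p = 0.0511 by edgeR). Class II rose in 11 of 13, with H2-Aa at 1.14 ± 0.18 (adjusted p = 0.00131 by edgeR). Larger rises were in the dissociation list (23 of 24, median 4.01) and in inflammatory genes (13 of 14, median 3.92). Il1b was at 0.253, 1.02 and 0.664 in intact and 94.1, 79.3 and 101 normalized CPM in dissociated bladder. Smooth muscle genes fell in 10 of 10 (median -3.71), and fibroblast genes rose in 12 of 12 and endothelial genes in 9 of 10. Their part in the C1q rise was not tested.

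In the spatial sections, RNA of the C1q genes was widespread. A C1q UMI was found in 94.9 to 99.5% of spots per section, at median depths of 14003 to 17222.5 UMIs per spot, and a spot can hold several cells. C1qa was at 192 and 239 normalized CPM in the 22-month and 227 and 300.02 in the 14-month sections. On this scale the groups overlapped for C1qa (-0.29 ± 0.17, adjusted p = 0.45 by edgeR). Without TMM they did not, at 186.6 and 219.2 CPM against 219.9 and 301.4 CPM, so the overlap depended on the scaling. C1qb (-0.54 ± 0.23, adjusted p = 0.328 by edgeR) and C1qc (-0.41 ± 0.17, adjusted p = 0.309 by edgeR) were lower at 22 months in both sections without passing. Of 14995 genes 0 passed edgeR's quasi-likelihood threshold (0%), 51.6% did not overlap between the groups, 2488 had an unadjusted p under 0.05, and DESeq2 called 420.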

How the data were processed

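The deposited tables were used as the authors made them. For cells, nuclei and sections the deposited values are UMI counts per gene and barcode, and for bulk RNA they are read counts per gene. Per the submitters' processing notes, mm10, bcl2fastq, Cell Ranger, Space Ranger, Subread and featureCounts were used; versions are not given in the sources used here. Per the labels, bulk libraries were polyA-selected.

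The members of the gate, the gene lists and the rules were chosen with earlier results of these data known. Barcodes with at least 500 UMIs were classed as C1q-gated, other Ptprc-positive or remaining. No doublet was removed in the main analysis; Scrublet's highest-scoring 0.8% of barcodes per 1000 were removed as an alternative. Counts were summed per library and class, and levels are those sums scaled to a total of 1000000 (CPM). Sums, sections and bulk libraries were compared with edgeR 4.0.16 (quasi-likelihood, robust, two-sided, TMM, filterByExpr, Benjamini-Hochberg over all genes tested, threshold 0.05). Standard errors are the size of the log2 difference over the root of F. Normalized CPM use TMM. C1qa, C1qb, C1qc and Ptprc were not tested between classes, nor Folr2 and Lyve1 between the subsets. Classes of a library share a library term. Named genes are list members, plus up to 10 rises and 10 falls largest in size past the threshold with at least 20 CPM in the higher group, no overlap between groups (or one direction in every library) and a gene symbol that is no predicted name. Thinning drew 1000 UMIs per cell without replacement. Some genes that meet this rule are not reported here, and counts over lists include them. Each main fit, but none of the alternatives, was run on simulated counts with known changes. Alternatives were DESeq2 1.42.0, its size factors, no filter on low counts, other gates, a Csf1r requirement and a comparison relative to remaining cells (both chosen after seeing the data), and leaving out each library. Total UMIs per cell library ran from 13281422 to 55374101, with 5197910 in nuclei, and limit genes of few UMIs.

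The replicate numbers of the bulk libraries did not pair them: same-numbered intact and dissociated libraries correlated at 0.257, 0.417 and -0.022 in their deviations from the group means. Promoters came from RefSeq (GRCm38); C1qb and C1qc matched.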

Additional observations from a re-analysis of the deposited data

Results flagged for a closer look

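In some comparisons gated cells differed from the remaining cells of the same libraries, by a test of the difference of differences in edgeR that was chosen after seeing the data. Between detrusor and whole bladder 248 genes differed in this way, between older and younger whole bladder 2 genes, and between nuclei and whole-bladder cells 4 genes.

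Cd74, the invariant chain of MHC class II, was 3.32 higher on the log2 scale in gated detrusor cells relative to remaining cells, and fell in gated cells alone. The summed class II list in remaining cells was at 9496, 6793, 882, 338 and 1092 CPM in whole-bladder libraries 1 to 5. It was at 111 and 120 CPM in those of detrusor only and detrusor enriched, and its part in the relative difference was not tested. Itgb2, a leukocyte integrin chain that also forms complement receptor 3, was 2.86 higher by this measure and fell in gated cells alone (-1.28 ± 0.40, SE). Slc40a1, which encodes the iron exporter ferroportin, was 3.27 higher and rose also in gated cells alone (1.78 ± 0.40, SE). Plac8 was at -3.04 by this measure, lower in gated detrusor cells. Ccl17, by the older against younger contrast, was 4.90 higher relative to remaining cells, with most of its UMIs from 1 cell in each of the older libraries.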

How the results depend on the processing

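No named gene past the threshold changed direction in the alternatives run, other than relative to remaining cells, which is another quantity. By that measure Cd74 and Itgb2 in detrusor changed sign and passed the threshold. Others changed sign short of it, among them Stab1, Maf and Lyve1. H2-Eb1 passed as higher by that measure but had not passed in gated cells alone. The older minus younger share reversed to -0.99 points without library 1, -0.10 without library 3 and -0.30 without library 4, within a leave-one-out range of -0.99 to 2.27. Counts of genes past the threshold moved by over 1.5 times as follows; the cause was not tested. Without a library term 1059 genes separated gated from other Ptprc-positive cells, 3438 gated from remaining cells and 0 the Folr2 or Lyve1 subsets. With no filter on low counts there were 34 with age, 2181 in detrusor, 1215 in nuclei and 287 between sections. With DESeq2 there were 2 with age, 181 in nuclei, 53 in the subsets and 420 between sections. The gate of 2 UMIs and 0.05% gave 34 with age, no sex term 0, and DESeq2's size factors 469 in nuclei. Relative to remaining cells there were 2 of 13145 with age and 248 of 14091 in detrusor, where the main fits tested 4564 and 8143 genes. The subsets gave 192 genes at 2000 UMIs, 382 unthinned and 57 without both male libraries. Leaving out 1 library gave 1841 to 2859 against other Ptprc-positive cells, 3 to 41 with age, 42 to 1507 in detrusor, 165 to 744 in nuclei and 0 to 300 between sections; a lone library left in an arm is assumed to vary like the others. The bulk replicate block, which the numbers do not support as a pairing, gave 10011 genes against 9798 with no named call lost and 1 gained. Library 4, with 8 gated cells, and the 28 nuclei have the least depth.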

Other observations

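Mki67, a marker of dividing cells, had UMIs in 37 of 191 gated cells of the detrusor-enriched library, where 49 of its 183 UMIs came from 1 cell. In detrusor only it was found in 13 of 413 gated cells, and in whole-bladder libraries 1 to 5 in 6 of 442, 1 of 378, 0 of 36, 2 of 8 and 3 of 53. After thinning each cell to 1000 UMIs the share was 0.461, 0, 0, 0 and 3.77% in libraries 1 to 5 (exact binomial 95% interval 0.460 to 12.98% in library 5), 0.761% in detrusor only and 6.25% in detrusor enriched (3.16 to 10.9%). At this depth 0 cells allow a share of cells with a UMI of up to 0.865, 8.33 and 37.5% in libraries 2, 3 and 4 (3 cells of the total), which limits detection and not expression.

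Il1b was found in fewer gated cells of detrusor only, 50 of 413, than of detrusor enriched, 73 of 191, or of whole-bladder libraries 1 and 2, 237 of 442 and 150 of 378. After thinning to 1000 UMIs its share was 6.09% in detrusor only, 29.5% in detrusor enriched and 26.4 to 43.5% in the 5 whole-bladder libraries.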
